A study of Mus musculus with 2 samples.

Results

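Mir221 and Mir222 are neighbouring miRNA genes on the mouse X chromosome. They were taken by gene symbol from the GENCODE M21 annotation and are 2 of the 2202 annotated miRNA genes in the tables. Per the labels, the libraries hold RNA under 30 nt from the left cerebral cortex of 4-day-old male pups, a label that the miRNA content of one library goes against. The strain is B6CASTF1/J, a first-generation hybrid of C57BL/6J and CAST/EiJ, and no treatment or mutation is given in the labels. There is 1 group of 2 libraries, labelled biological replicates 1 and 2 and called here the libraries labelled rep 1 and rep 2. The labels give the males different numbers but one shared donor identifier, so whether the libraries come from separate animals is not settled. The tests on reads below cover counting error only.

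A miRNA gene is transcribed as a hairpin, and a mature strand of it guides silencing complexes to mRNAs that pair with its seed, bases 2 to 8. The mature strands of miR-221 and miR-222 share their seed. Together they are known for repressing Cdkn1b, which encodes the cyclin-dependent kinase inhibitor p27, and in human cells also CDKN1C and the receptor tyrosine kinase KIT. They are well described in endothelium, vascular smooth muscle and dividing tumour cells, and in the tumour cells they release the brake on the cell cycle. A male has one X chromosome, which by the convention that the dam's strain is written first comes from C57BL/6J, the strain of the reference genome.

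The mature sequences are shown with the seed in capitals, which the 3p strands of both hairpins share. They and the hairpins below are from RefSeq on GRCm38.p6 (mm10), where both members matched by symbol.
mmu-miR-221-3p: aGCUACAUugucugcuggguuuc
mmu-miR-222-3p: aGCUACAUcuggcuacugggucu
mmu-miR-1928: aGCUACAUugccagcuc
mmu-miR-221-5p: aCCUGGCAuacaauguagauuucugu
The 3p strands of miR-221 and miR-222 are each 23 nt long. They are identical over their first 8 bases, which is also their longest shared run. In the RefSeq table of 1738 mature sequences, 3 genes carry this seed, and the third is Mir1928 on chromosome 1. No other gene in that table has the seed of miR-221-5p.

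The hairpins are shown with the annotated mature strands in capitals, so that the sequence outside the seed can be compared.
Mir221 hairpin: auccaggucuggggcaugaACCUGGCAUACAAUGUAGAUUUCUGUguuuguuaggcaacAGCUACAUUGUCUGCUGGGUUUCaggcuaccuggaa
Mir222 hairpin: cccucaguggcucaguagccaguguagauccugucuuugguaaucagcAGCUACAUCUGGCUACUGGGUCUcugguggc
Mir221 (ENSMUSG00000065422.1) is 95 nt long and lies at chrX:19146294-19146388 on the minus strand. Mir222 (ENSMUSG00000065471.1) is 79 nt long and lies at chrX:19146893-19146971 on the same strand, so that it comes first in the direction of transcription. A gap of 504 nt separates them, and the span of both is 678 nt. In GENCODE M21, 0 other genes overlap that span. The nearest on the higher side is Gm14636, a noncoding transcript on the same strand, 10009 nt away. On the lower side the nearest is the pseudogene Gm5383 at 203065 nt.

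The longest run that the hairpins share with each other is 9 nt. Such a run counts unbroken identity only, and likeness with gaps allowed was not measured. Against the other hairpins among 1005 in the RefSeq table, on either strand, the longest shared run was 13 nt for Mir221 and 12 nt for Mir222. The full 3p sequence of each occurred in 1 GENCODE transcript. In the layout of the tables a read placed at several sites is given to no gene. Reads of full mature length from these hairpins match no other annotated miRNA hairpin in that table.

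The known targets can be read beside the seed. The word ATGTAGC is the reverse complement of the shared seed in DNA letters, and was searched on the sense strand of the longest annotated 3′ UTR of each gene. It was found 1 time in Cdkn1b, 1 time in Cdkn1c, which encodes the inhibitor p57, and 2 times in Kit. The windows below, from GENCODE M21 transcripts on mm10, have the match in capitals.
Cdkn1b, chr6:134924418-134924445, plus strand: ctaaaagcattggATGTAGCattgcgca
Cdkn1c, chr7:143458918-143458945, minus strand: ggacctttcgttcATGTAGCaggaaccg
Kit, chr5:75654979-75655006, plus strand: tgatgggagatatATGTAGCaagactag
Kit, chr5:75656510-75656537, plus strand: tgtaaatattgaaATGTAGCaataatgt
In each window the base after the match is an A, which faces the first base of the miRNA. Over all 21022 longest 3′ UTRs, 9.45% held the word at least 1 time. Among UTRs within 10% of the length of the Cdkn1b UTR (3439 nt), 23.1% held it. The share was 4.88% at the length of Cdkn1c (688 nt) and 15.0% at that of Kit (2177 nt). Of the UTRs near the length of Kit, 1.56% held it at least 2 times. A match is a description of sequence, and no mRNA was measured in these libraries.

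The library labelled rep 2 stood apart before any result on the pair. Own-strand miRNA counts totalled 2999032 in the library labelled rep 1 and 3577964 in the library labelled rep 2, which were 29.9% and 52.6% of their reads. The neuron-enriched miRNAs Mir124a, Mir9, Mir128, Mir137, Mir132, Mir212 and Mir138 (13 genes) made up 4.27% of counts in the first and 0.131% in the second. The 9 muscle miRNAs made up 0.00730% and 15.7%. Mir206 alone held 559242 of the 562167 muscle counts in the second. The content of the library labelled rep 2 thus goes against its label, which names cortex. Each direction below is between libraries as labelled, and a fold between them is not a fold between replicate cortex samples of like content.

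Both hairpins were detected in both libraries, and both were far higher in the library labelled rep 1. Levels are own-strand counts scaled to the total of own-strand miRNA counts of the library (CPM), with exact 95% Clopper-Pearson intervals that cover counting error only. Each sequenced read is a whole small RNA, so no correction for hairpin length applies. Mir221 had 4999 counts in the library labelled rep 1, or 1667 CPM (interval 1621 to 1714). It had 312 counts in the library labelled rep 2, or 87.2 CPM (77.8 to 97.4). Mir221 ranked 79 among 693 detected miRNA genes in the library labelled rep 1 and 183 among 604 in the library labelled rep 2.

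Mir222 had 984 counts in the library labelled rep 1, or 328.1 CPM (interval 307.9 to 349.3). It had 79 counts in the library labelled rep 2, or 22.1 CPM (17.5 to 27.5). Its ranks were 143 and 235, below Mir221 each time. No interval of one library overlapped that of the other for either hairpin. The means over the libraries were 877 ± 1117 CPM for Mir221 and 175 ± 216 CPM for Mir222 (SD, n = 2 each), so the spread between libraries exceeded each mean.

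**Figure D1:**
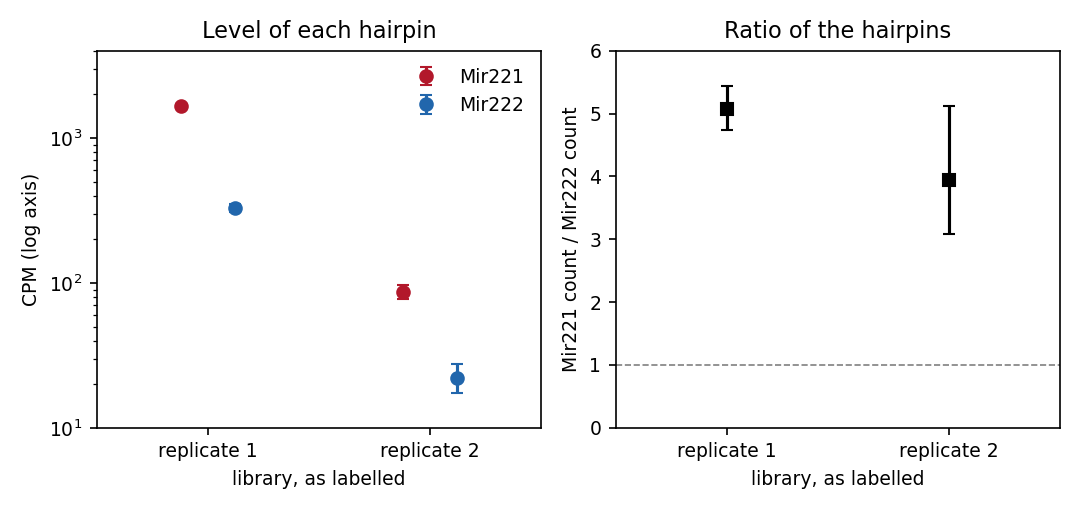
Left, CPM of Mir221 and Mir222 in each library on a log axis, with exact 95% intervals; right, the count of Mir221 over that of Mir222 in each library with its exact 95% interval and a dashed line at 1. Mir221 stands at 1667 and 87.2 CPM and Mir222 at 328.1 and 22.1 CPM in the libraries labelled rep 1 and rep 2, while the ratio stays between 3.95 and 5.08.

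Mir221 was 19.1-fold higher in the library labelled rep 1 than in the library labelled rep 2 (interval 17.0 to 21.5). Mir222 was 14.9-fold higher (11.8 to 18.9). In an exact binomial test, two-sided and adjusted by Benjamini-Hochberg over the 463 genes that reached 10 counts summed, the adjusted p was 1.53e-235 for Mir222 and below the range of double precision for Mir221. The same test called 90.1% of all genes tested, and 63.7% of those tested were called higher in the library labelled rep 1 and 26.3% lower. With the TMM scaling of edgeR, which moves an abundant gene by -1.40 on the log2 scale, 79.9% were called, 39.3% higher there and 40.6% lower. Passing is thus common among genes, and the test compares these libraries, not conditions.

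The size of the difference says more than the call. With TMM, Mir221 remained 7.23-fold and Mir222 5.62-fold higher in the library labelled rep 1. On log2 ratios with a prior of 1 CPM, the median over all 463 genes was 1.35 with total counts and 0.26 with TMM. On the same scale with total counts, Mir221 stood at 4.24 and Mir222 at 3.83. A ratio of at least that of Mir221 was seen for 11.0% of genes tested, Mir221 included, and at least that of Mir222 for 12.3%. At least 4-fold higher in the library labelled rep 1 were 37.4% of genes with total counts and 19.4% with TMM. In either direction the shares at least as large as Mir221 and Mir222 were 15.6% and 17.9%, and with TMM 29.4% and 34.1%.

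**Figure D2:**
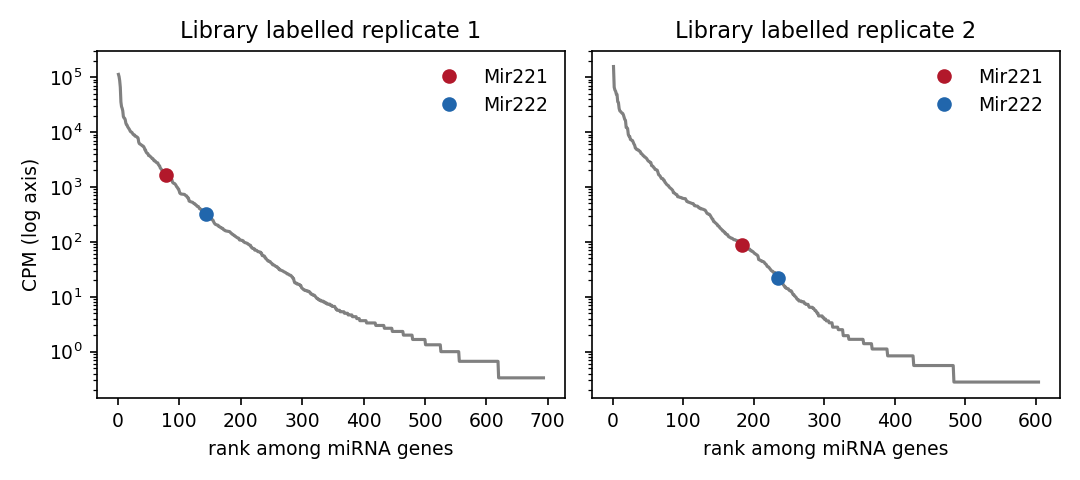
CPM on a log axis against rank for every detected miRNA gene, in the library labelled rep 1 (left) and the library labelled rep 2 (right), with Mir221 and Mir222 marked. Mir221 ranks 79 and 183 and Mir222 ranks 143 and 235.

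The proportion of the hairpins moved far less between the libraries than their levels did. Mir221 gave 5.08 reads for each read of Mir222 in the library labelled rep 1 (exact 95% interval 4.74 to 5.45). In the library labelled rep 2 the ratio was 3.95 (3.08 to 5.12). Mir221 took 83.6% of the reads of the pair in the first (82.6 to 84.5) and 79.8% in the second (75.5 to 83.7). Both ratios lay well above 1 and their intervals overlapped. The mean was 4.51 ± 0.80 (SD, n = 2). Counts per hairpin were not corrected for differences in ligation or mapping, so the ratios are of reads.

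The change of that ratio was tested directly, since scaling between libraries cancels in it. The conditional odds ratio, the library labelled rep 1 over the library labelled rep 2, was 1.29 (exact 95% interval 0.983 to 1.67). Fisher's exact test gave a two-sided p of 0.0585 and an adjusted p of 0.0746 over all neighbouring pairs, which does not pass. A p that misses the threshold does not show that the ratio was the same, and the interval allows a change of up to 1.67-fold. The 79 reads of Mir222 in the library labelled rep 2 limit its precision.

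The ratio of Mir221 to Mir222 changed by less than that of most neighbouring miRNA genes. Neighbouring pairs were consecutive miRNA genes on one strand with a gap of at most 10 kb and at least 10 counts summed for each gene. In a run of such genes the pairs overlap, and many of the pairs lie in runs on chromosome 12, so they are not independent. Of 111 such pairs, 83 changed their ratio between the libraries by the same test (74.8%). The point value changed by more in 97 of the 111 pairs (87.4%) than for Mir221 and Mir222. The median change was 2.61-fold in either direction, with 0.5 added to each count. Of the 65 pairs whose every count was at least 79, 60 passed and 56 changed by more.

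In 4 of the 111 pairs both genes were at least 10-fold higher in the library labelled rep 1 with total counts, a limit chosen after the values were seen. Besides Mir221 and Mir222 they were Mir212 and Mir132, Mir216a and Mir217, and Mir3093 and Mir9-1. With TMM, Mir221 (7.23-fold) and Mir222 (5.62-fold) did not reach that limit. Mir132 and Mir212 are activity-regulated neuronal miRNAs made from one transcript. Mir132 had 11179 and 391 counts and Mir212 had 145 and 13 in the libraries labelled rep 1 and rep 2, and their ratio changed (adjusted p = 0.00467, Fisher's exact test). The other pairs had a gene with at most 2 counts in the library labelled rep 2.

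**Figure D3:**
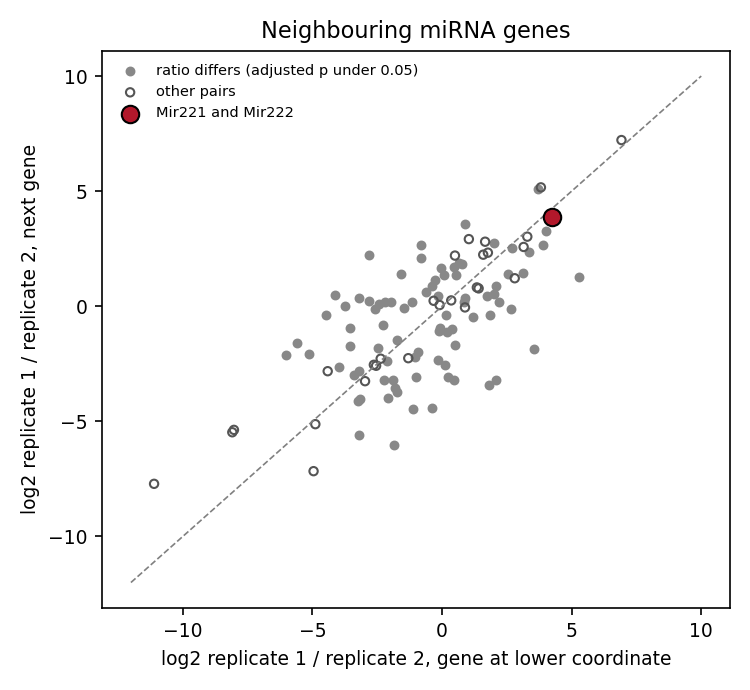
Each point is a pair of neighbouring miRNA genes, with the log2 ratio of replicate 1 over replicate 2 of the gene at the lower coordinate on the x axis and that of the next gene on the y axis (total counts, 0.5 added). The dashed line marks equal change; Mir221 and Mir222 lie close to it at 4.25 and 3.89, and filled points are the 83 of 111 pairs whose ratio differed.

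In the order of levels, most genes next to the pair could not be told from it. In the library labelled rep 1, Mir598 at rank 77 was above Mir221 beyond counting error (5475 counts, Mir221 over Mir598 0.913, interval 0.879 to 0.949). Mir134, a brain miRNA found in dendrites, Mir22 and Mir341, with 5061, 4979 and 4964 counts, did not differ from Mir221 beyond counting error. Around Mir222 the same held for Mir331, Mir381, Mir425 and Mir488, with 1005, 996, 958 and 912 counts. In the library labelled rep 2, the genes just above Mir221 were Mir669o (320 counts) and Mir3102 (319), and those just below were Mir486 (305), known from red blood cells and muscle, and Mir330 (304). Mir1a-2 (85), Mir92-2 (84), Mir7-1 (75) and Mir103-2 (73) stood around Mir222 there. None of these 8 differed from the hairpin beside it beyond counting error, and the last 4 have copies elsewhere that make their counts uncertain. Mir669o also has family members, so its count may be uncertain as well.

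The genes whose levels were most like those of each hairpin were found by Euclidean distance in log2(CPM + 1) over the 2 libraries, among 295 genes with at least 100 counts summed. Nearest to Mir221 was Mir672, also on the X chromosome, at a distance of 0.39, with 5481 and 241 counts in the libraries labelled rep 1 and rep 2. Mir3099 followed at 0.40 with 4803 and 236 counts, and Mir330 at 0.74 with 8347 and 304. For Mir222 the nearest were Mir1249 at 0.63, with 1386 and 59 counts, and Mir138-2 at 0.68, with 1334 and 54. Mir31 was next at 0.81, with 617 and 110 counts. Mir138-2, a neuron-enriched miRNA, shares sequence with the copy Mir138-1, so its count is uncertain.

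The third carrier of the seed gave no reads. Mir1928 had 0 counts in each library, which allows up to 1.00 CPM in the library labelled rep 1 and 0.838 CPM in the library labelled rep 2. All reads counted for carriers of this seed came from Mir221 and Mir222, which summed to 1995 CPM (1945 to 2046) in the library labelled rep 1. Their sum was 109 CPM (98.7 to 121) in the library labelled rep 2. The counts are per hairpin, so the 5p and 3p sides of each hairpin are not separated and the share that carries the seed is not known. The sum was 18.3-fold higher in the library labelled rep 1 (16.5 to 20.3).

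X-linked miRNA genes differed in both directions. Of 142 X-linked miRNA genes, 41 were tested, Mir221 and Mir222 included. With total counts, 22 were higher in the library labelled rep 1, 17 were lower and 2 did not pass, where 63.7% of all genes tested were higher and 26.3% lower. With TMM, 15 were higher and 24 lower, beside 39.3% and 40.6% of all genes tested. The median log2 ratio of the 41 genes was 0.37 with total counts and -1.03 with TMM, against 1.35 and 0.26 over all genes. Among the 33 X-linked genes with at least 100 counts summed, ordered by fold with 0.5 added to each count, Mir221 stood at place 6 and Mir222 at place 8. Mir322, an abundant X-linked miRNA, went the other way with 12134 and 86819 counts in the libraries labelled rep 1 and rep 2.

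Other miRNAs tied to cyclin-dependent kinase inhibitors were split. The list held Mir17, Mir20a, Mir93, Mir106a and Mir106b, whose human relatives repress CDKN1A, and Mir25 and Mir92b, whose human relatives repress CDKN1C. In the library labelled rep 1, 4 of these 7 genes were higher and 3 lower, with either scaling, beside shares over all genes tested of 63.7% and 26.3% with total counts and 39.3% and 40.6% with TMM. The 7 log2 ratios had a median of 1.66 with total counts and 0.26 with TMM. Mir17 had 30006 and 8526 counts (4.20-fold, interval 4.10 to 4.30) and Mir93 had 25213 and 4757 (6.32-fold) in the libraries labelled rep 1 and rep 2. Mir92b, described in neural progenitors, had 10118 and 16 counts. Lower in the library labelled rep 1 were Mir25, with 494 and 1038 counts, Mir106a, with 70 and 162, and Mir106b, with 2075 and 2652. Mir25 thus differed in the direction opposite to that of Mir221 and Mir222.

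Markers of cell types that could hold the pair differed between the libraries too. For each list the counts stand beside the same shares over all genes tested, 63.7% higher in the library labelled rep 1 and 26.3% lower with total counts, and 39.3% and 40.6% with TMM. All 3 vascular miRNAs (endothelial Mir126a, and Mir143 and Mir145a of smooth muscle) were lower in the library labelled rep 1, with either scaling. Their sum was 17107 CPM there and 46995 CPM in the library labelled rep 2. The 3 log2 ratios had a median of -0.93 with total counts and -2.33 with TMM. Mir126a had 35984 and 81797 counts and Mir143 had 14193 and 84860. Mir145a differed little with total counts, at 1126 and 1491 counts (0.901-fold, interval 0.833 to 0.974). The pair thus went opposite to the vascular list in these libraries, and none of the 3 was at 0.

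Blood and immune miRNAs (Mir451a, Mir144, Mir486, Mir223, Mir142, Mir150 and Mir155; 7 of 8 listed symbols matched) summed to 683 CPM in the library labelled rep 1 and 673 CPM in the library labelled rep 2. Of the 7, 1 was higher and 6 were lower in the library labelled rep 1, with either scaling. Their log2 ratios had a median of -1.19 with total counts and -2.41 with TMM. The higher one was Mir150, a lymphocyte miRNA, with 1208 and 267 counts. Erythroid Mir451a had 34 and 196 counts, and none of the 7 was at 0.

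The neuron-enriched list summed to 42677 CPM in the library labelled rep 1 and 1314 CPM in the library labelled rep 2. Its 9 tested genes were all higher in the library labelled rep 1, with either scaling, and the median of their log2 ratios was 5.08 with total counts and 3.68 with TMM. Of these, Mir9-3 (837 and 1 counts) and Mir9-1 (187 and 1) reached the filter only through the library labelled rep 1, which favoured that direction. Mir9-2 and the 3 Mir124a copies were at 0 in the library labelled rep 2. They had only 7 (Mir9-2), 8, 3 and 1 counts in the library labelled rep 1 and were not tested, so their zeros say little. The folds of the 9 tested genes with total counts ran from 13.3 (Mir212) to 999 (Mir9-3, interval 179 to 39488, on 1 count in the library labelled rep 2). Of the 9, 7 lay above the folds of both Mir221 and Mir222, and 2 (Mir212 and Mir128-2, at 14.1-fold) lay below both. Several members have copies elsewhere, and their counts are uncertain. Muscle miRNAs summed to 73.0 CPM and 157119 CPM, with 6 of 9 genes at 0 in the library labelled rep 1 and Mir133a-2 at 0 in the other. Of the larger sum, 156302 CPM came from Mir206. Mir1a and Mir133a also have copies elsewhere, so their counts are uncertain. The 7 tested muscle genes were all lower in the library labelled rep 1, with either scaling, with a median log2 ratio of -6.31 with total counts and -7.15 with TMM. All of them but Mir206 had at most 6 counts in the library labelled rep 1 and reached the filter only through the other library. The filter thus favoured that direction for them, and the median rests on such genes. The part of these cell type differences in the levels of the pair was not tested, and in bulk RNA fewer cells of a type and less RNA per cell cannot be told apart.

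**Figure D4:**
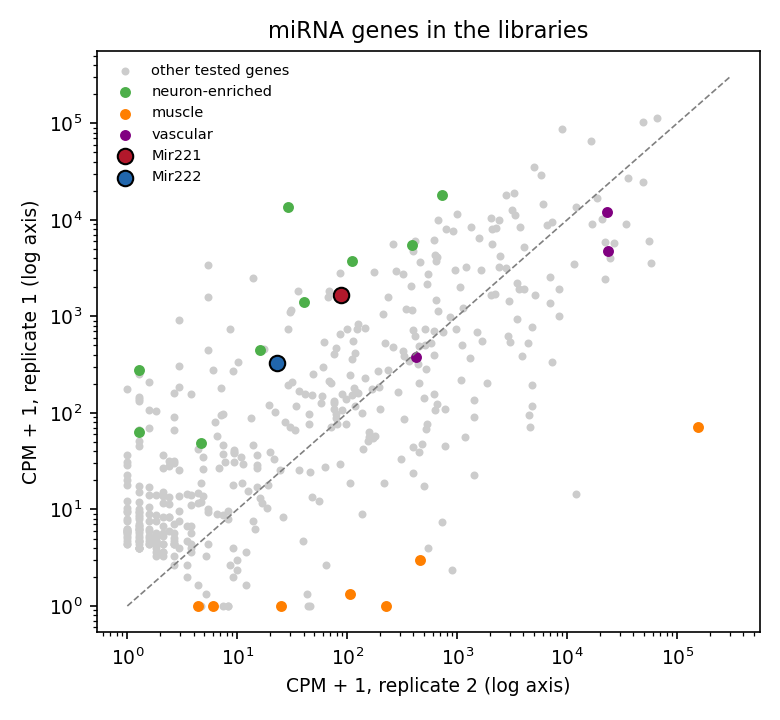
CPM + 1 of the 463 tested miRNA genes in the library labelled rep 1 (y axis) against the library labelled rep 2 (x axis), both on log axes, with the pair and 3 marker lists coloured and a dashed line of equal level. Mir221 and Mir222 lie above the line on the side of the neuron-enriched genes, and the vascular and muscle genes lie below it.

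**Figure D5:**
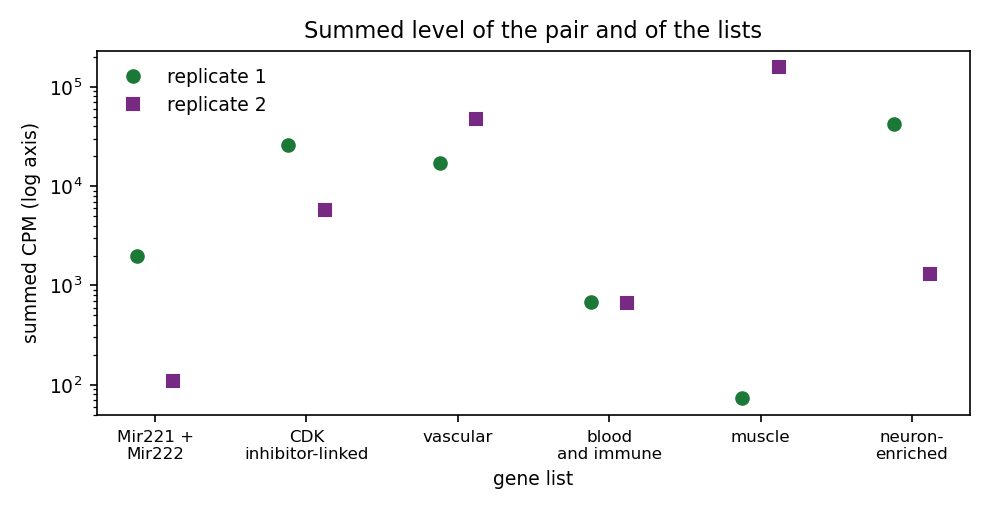
Summed CPM of Mir221 and Mir222 and of 5 miRNA lists in each library, on a log axis. The pair sums to 1995 CPM in the library labelled rep 1 and 109 CPM in the library labelled rep 2, the neuron-enriched list is likewise higher in the first, and vascular and muscle sums are higher in the library labelled rep 2 and blood and immune sums are 683 and 673 CPM.

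The column for the strand opposite to each gene held 0 reads at Mir221 and at Mir222 in both libraries. The unstranded column gave the own-strand counts of both hairpins exactly, 4999 and 984 in the library labelled rep 1 and 312 and 79 in the library labelled rep 2. The ratio of the hairpins was therefore the same in either column. Scaled to all reads of a library in place of miRNA counts, Mir221 stood at 498 CPM in the library labelled rep 1 and 45.9 CPM in the library labelled rep 2. Mir222 stood at 98.1 and 11.6 CPM on that scale.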

How the data were processed

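The 2 microRNA-seq libraries form 1 group. For each, the authors deposited a table of raw counts of reads by miRNA gene, with columns for either strand, the own strand and the opposite strand. The assembly is mm10 and the annotation GENCODE M21, per the text deposited with the tables. The aligner, the counter and their versions were not given in the sources used here. All 2202 identifiers matched GENCODE M21. Entries without a gene stayed out of totals and tests. Reads placed at several sites (46.1% and 39.8% of the reads of the libraries labelled rep 1 and rep 2) lie among these.

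Own-strand counts were scaled by their totals. Libraries were compared by the exact binomial test over genes with at least 10 counts summed, and pairs by Fisher's exact test, with p-values adjusted by Benjamini-Hochberg and called under 0.05. The quasi-likelihood test of edgeR was not run, since each arm holds a single library. Members and lists were chosen with earlier results of these data known. Named genes were the members, the 2 genes above and below each in rank, the 3 nearest in level, carriers of the seed, and list members. Any other gene was named after its values were seen. Tests were checked on simulated data. Alternatives were TMM, DESeq2 size factors, other filters, totals without the most abundant gene of each library, the unstranded column and a shorter gap. A negative binomial test was also run, with a coefficient of variation assumed to be 0.1 and not estimated from these libraries. Scaling by all reads was added after seeing the data. Software was Python 3.11.15, scipy 1.17.1, R 4.3.3, edgeR 4.0.16 and DESeq2 1.42.0. Intervals cover counting error only, because PCR copies carry no molecular identifiers and are not independent.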

Additional observations from a re-analysis of the deposited data

How the results depend on the processing

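Mir221 and Mir222 stayed higher in the library labelled rep 1, past the threshold, under all 8 alternatives run for each. Passing was common among all genes tested there too, in either direction. It was seen for 364 of 463 with DESeq2 size factors and 384 of 463 with the negative binomial test. With no filter it was 455 of 758, and with at least 100 counts summed 285 of 295. Other filters left both log2 ratios at 4.26 and 3.89 and changed only the adjustment. The log2 ratio of Mir221 ranged from 2.71 (DESeq2 size factors) to 4.26 (total counts) and that of Mir222 from 2.34 to 3.89. Scaling is the choice that moved these values most, by -1.40 with TMM and -1.55 with DESeq2 size factors on the log2 scale. For the ratio of Mir221 to Mir222, leaving out 1 library only returns the value of the other, 3.95 or 5.08 (geometric mean 4.48). The change of that ratio did not pass under any of 3 alternatives, with adjusted p between 0.0669 and 0.0777 (Fisher's exact test). These alternatives left the odds ratio at 1.29 and changed only the set of pairs used for adjustment. Adjustment cannot bring p below the unadjusted 0.0585 of Fisher's exact test, so none of them could have passed. With a gap of at most 1 kb, 51 of 72 neighbouring pairs passed in place of 83 of 111, a share of 70.8%. The unstranded column gave 63 of 89 (70.8%), and a minimum of 100 counts for each gene gave 68 of 80 (85.0%). Fewer pairs were tested each time. No paired analysis was possible because there is only 1 group. Leaving out a library ends every comparison between libraries, so none could be repeated that way. The 79 counts of Mir222 in the library labelled rep 2 limit what can be said of the ratio.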
